A study of Mus musculus with 2 samples.

Results

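The 10 genes described here encode cytosolic chaperones and their helpers, and they were picked for lower values in the hypoxia library than in the control library. They were found by gene name in both deposited tables, 10 of 27706 gene columns in all. Hsp90aa1 and Hsp90ab1 encode the 2 cytosolic HSP90 proteins, Hspa8, Hspa1a and Hspa1b encode HSP70 proteins, and Dnaja1 and Dnajb1 encode J-domain (HSP40) partners of HSP70. The set is wider than HSP90, HSP70 and HSP40: Hsph1 and Hspa4l belong to the HSP110 group, which exchanges nucleotide on HSP70, and Chordc1 encodes a co-chaperone that binds HSP90. By textbook use, 5 genes were placed as inducible (Hspa1a, Hspa1b, Dnajb1, Hsph1 and Hsp90aa1) and 3 as constitutive (Hspa8, Hsp90ab1 and Dnaja1), while Hspa4l and Chordc1 were left unplaced. Since the genes were chosen on this contrast, every difference between the libraries given for them is a description and supports nothing.

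Bone marrow came from ICR mice, an outbred stock, of 7 to 8 weeks. The hypoxia mice stayed 13 days in an altitude chamber at 52.93 kPa, equated in the labels with 5000 m, with oxygen at 19.5%. The control mice were killed on arrival in Xining, so they were not housed in parallel, and hypoxia cannot be told apart from time, housing or sample handling. Both groups were lineage-depleted with magnetic beads, and each gave 1 BD Rhapsody library. The sources used here do not give the number of mice behind a library. With 1 library per group there is no replicate and no test, and all intervals are 95% intervals that cover counting error only, not the spread between cells, mice or preparations.

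After filtering, 6276 hypoxia cells and 3914 control cells remained, with median depths of 21344.5 unique molecular identifiers (UMIs) in hypoxia and 32165.5 in control, each UMI standing for 1 captured RNA molecule. The libraries shared 23 cell barcodes, against 28.6 given by chance. Cells were placed in 14 gates by marker genes, and 5212 hypoxia and 3311 control cells fell in exactly 1 gate. Gates are called by their markers, which are known for stem and multipotent progenitors (Hlf), lymphoid-primed cells (Dntt), granulocyte progenitors (Elane), monocytic and dendritic cells (Irf8), the neutrophil lineage (S100a8 with S100a9), the eosinophil lineage (Epx), the megakaryocyte lineage (Pf4 with Itga2b) and progenitors of megakaryocytes and erythroid cells (Gata2 with Slc18a2). The basophil gate asked for 2 of Cpa3, Prss34 and Mcpt8, and the T/NK gate for Cd3e, Cd3g or Gzma. Erythroid cells, gated on 2 of Gata1, Klf1 and Epor together with Car1 or globin, formed an early gate with Gata2, a gate at the stage of the erythroid colony-forming unit (CFU-E) without it, a globin onset gate and a globin-high gate. Summed globin CPM (UMIs of a gene scaled to counts per 1e6 UMIs) stood at 73.2, 171, 3968 and 23403 CPM over the 4 hypoxia gates. Control had 23.2 CPM in the early gate and 3277 and 29707 CPM in the globin gates. Globin limits set these gates, so the steps to globin onset and globin-high were fixed in advance. Alas2, which set no gate, had 1.80, 3.43, 50.9 and 439 CPM over the 4 hypoxia gates. In control it had 0.483, 3.16, 44.7 and 433 CPM. The Epx gate held 61 hypoxia and 12 control cells and the T/NK gate 30 hypoxia and 19 control cells, so their values are imprecise. The early erythroid gate depended on its limits, since 27 of its 147 hypoxia cells and 15 of its 148 control cells stayed in it with the marker limits both halved and doubled.

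As background, HSP70 binds exposed hydrophobic stretches of unfolded proteins in a cycle driven by ATP, which J-domain proteins start and HSP110 proteins reset, and it hands clients such as kinases and steroid receptors on to HSP90. Heat shock factor 1 (HSF1) is held inactive by chaperones and, when these are drawn away by unfolded protein, turns on the inducible genes through heat shock elements, inverted repeats of the unit GAA. In human erythroblasts, HSP70 shields the transcription factor GATA1 from caspase cleavage during maturation. In rabbit reticulocyte lysate, HSP90 and HSC70, the product of Hspa8, hold the heme-regulated kinase that limits globin synthesis.

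Over all retained cells, every one of the 10 chaperone genes had a lower CPM in the hypoxia library than in the control library, and inducible genes had both the widest and the narrowest gaps. Hsph1 stood at 163 CPM in hypoxia cells and 833 CPM in control cells, a ratio of 0.196 (interval 0.193 to 0.199). Its log2 ratio of −2.28, taken with 10 CPM added on both sides, was the lowest of 14057 genes, those with 50 UMIs or more in both libraries together. Dnajb1, likewise inducible, stood at 123 CPM in hypoxia and 167 CPM in control, a ratio of 0.738 (0.723 to 0.754) and rank 446 from the lowest.

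The HSP70 genes covered a wide range of levels. Hspa8, the constitutive HSC70, had 849.6 CPM in hypoxia cells and 1872 CPM in control cells, a ratio of 0.454 (0.451 to 0.457). Hspa1a had 90 UMIs (0.676 CPM) in hypoxia cells and 845 UMIs (7.05 CPM) in control cells, a ratio of 0.0958 (0.0762 to 0.119). Hspa1b, its neighbour on chromosome 17, had 253 UMIs (1.90 CPM) in hypoxia cells and 2281 UMIs (19.0 CPM) in control cells, a ratio of 0.0998 (0.0872 to 0.114). These low genes had the smallest plain ratios of the 10, and their log2 ratios with 10 CPM added, −0.68 and −1.29, understate them. The annotated transcripts of the pair are 93.6% identical over 2735 aligned bases, and 64.4% over 421 aligned bases of their last 500. A UMI of one could therefore have been given to the other where a read lay in the shared stretch, and their sum is the safer value.

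The HSP90 pair moved by different amounts. Hsp90aa1, the inducible HSP90 gene, had 1801 CPM in hypoxia cells and 4427 CPM in control cells, a ratio of 0.407 (0.405 to 0.409). Hsp90ab1, its constitutive partner, had 2414 CPM in hypoxia cells and 3739 CPM in control cells, a ratio of 0.646 (0.643 to 0.648). Both intervals are narrow because these are among the most abundant transcripts here, with 239824 and 321471 UMIs in the hypoxia library.

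Of the other helpers, Dnaja1, a J-domain protein of class A, had 307 CPM in hypoxia cells and 803 CPM in control cells, a ratio of 0.382 (0.378 to 0.387). Chordc1 had 128 CPM in hypoxia and 333 CPM in control, a ratio of 0.385 (0.378 to 0.392), and Hspa4l had 102 CPM in hypoxia and 221 CPM in control, a ratio of 0.464 (0.454 to 0.474). A gene is called lower here where the hypoxia value was at least 1.5-fold below the control value on the scale with 10 CPM added. By that rule 9 of the 10 genes were lower over all cells, where 1.1% of all genes tested were, and none was higher, where 2.59% were. At 2-fold, 7 of the 10 were lower, and 17 genes (0.121%) of all those tested were, the 7 included; at the CFU-E stage 7 of the 10 and 19 genes in all (0.169%) were. The genes nearest the 1.5-fold limit were Hsp90ab1 and Hspa1a, inside it at −0.63 and −0.68. Dnajb1 lay outside it at −0.41. The median log2 ratio was −1.21 for the 10 genes and 0.03 for all genes tested. In bulk sums over cells, fewer cells of a type and less RNA per cell cannot be told apart, so the values within gates follow.

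**Figure D1:**
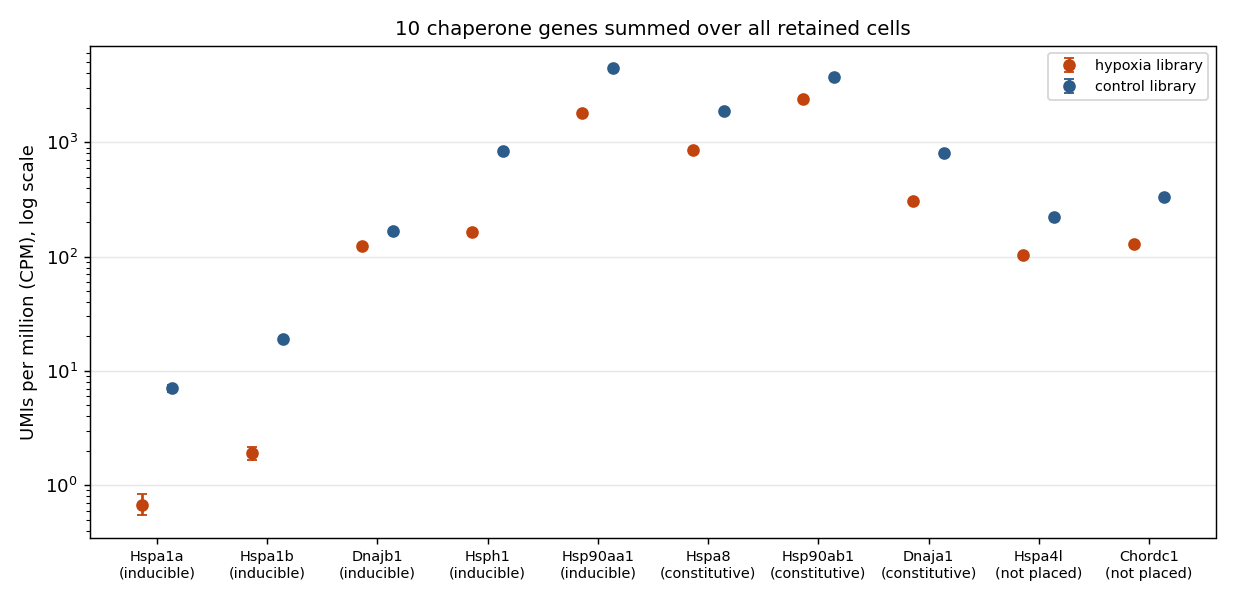
Scaled counts (CPM, log axis) of the 10 chaperone genes summed over 6276 hypoxia cells and 3914 control cells, with exact Poisson 95% intervals, most of them smaller than the points. Every hypoxia point lies below its control point, with the widest gaps for Hspa1a, Hspa1b and Hsph1 and the narrowest for Dnajb1.

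On GRCm38 (GENCODE vM21 annotation), all 10 are protein-coding genes. Hspa1a lies at chr17:34969190-34972156 and Hspa1b at chr17:34956436-34959238, both on the minus strand, and Hsp90ab1 at chr17:45567775-45573271 on the minus strand. Hsp90aa1 lies at chr12:110690605-110702728 and Hsph1 at chr5:149614287-149636376, both on the minus strand. On the plus strand lie Hspa8 at chr9:40800984-40810087, Chordc1 at chr9:18292125-18317442, Dnaja1 at chr4:40722150-40737149, Dnajb1 at chr8:83608193-83612653 and Hspa4l at chr3:40744495-40796103. Hspa1a overlaps Gm20481, Chordc1 overlaps Gm19178 and Dnaja1 overlaps Smu1 and Gm6297 on the opposite strand. The sources used here do not say how the pipeline used strand, so UMIs of these genes could include some of the opposite strand.

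The promoters of these genes are shown because HSF1 acts on the inducible ones through heat shock elements. RefSeq promoter sequences on GRCm38.p6, running from 250 bases before to 50 after a start, were at hand for 7 of the 10 genes. Searched were GAANNTTC or TTCNNGAA (2 facing units, each pattern its own reverse complement) and the longer pattern with a further facing unit after 2 more bases (3 units, which holds the shorter patterns). Both strands were covered. Of 32851 promoters of that length in the table, 15.1% held the 2-unit letters and 0.603% the 3-unit letters. The stretches below run 5′ to 3′ on the gene's strand, in lower case with the matched letters in capitals. They are Chordc1 (chr9:18292207-18292291, plus strand), Hsph1 from its second listed start (chr5:149636288-149636375, minus strand), Hspa1a (chr17:34972157-34972276, minus strand), Hspa1b (chr17:34959239-34959358, minus strand), Dnaja1 from its first listed start (chr4:40722338-40722467, plus strand) and Dnajb1 (chr8:83608055-83608174, plus strand), the last shown for comparison. Chordc1 runs to 25 bases after its start, Hsph1 to 28, and the others end just before theirs.
Chordc1: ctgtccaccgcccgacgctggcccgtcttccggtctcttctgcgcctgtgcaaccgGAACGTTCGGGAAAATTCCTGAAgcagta
Hsph1: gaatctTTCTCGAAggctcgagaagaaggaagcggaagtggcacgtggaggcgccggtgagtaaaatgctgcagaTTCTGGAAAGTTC
Hspa1a: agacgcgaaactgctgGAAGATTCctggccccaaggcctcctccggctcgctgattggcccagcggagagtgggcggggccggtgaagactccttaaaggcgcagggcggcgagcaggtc
Hspa1b: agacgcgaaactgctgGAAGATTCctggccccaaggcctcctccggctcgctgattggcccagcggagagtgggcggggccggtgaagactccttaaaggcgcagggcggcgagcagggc
Dnaja1: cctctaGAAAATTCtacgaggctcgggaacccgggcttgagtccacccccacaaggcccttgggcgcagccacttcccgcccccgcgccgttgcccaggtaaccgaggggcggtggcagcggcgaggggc
Dnajb1: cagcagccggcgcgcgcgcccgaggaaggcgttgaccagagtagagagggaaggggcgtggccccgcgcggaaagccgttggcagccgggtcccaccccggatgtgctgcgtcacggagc

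Chordc1 carried overlapping 3-unit matches over its start, from −4 to 19, counting the first transcribed base as 1 with no base 0. Base 1 is the RefSeq start, which can differ from the GENCODE start given above. The stretches shown for Chordc1, Hsph1 and Dnaja1 lie within the GENCODE spans of these genes. Hsph1 had a 2-unit match at −54 to −47 and a 3-unit match at 16 to 28. Hspa1a and Hspa1b each had 1 match, GAAGATTC at −104 to −97, in stretches that were alike at 119 of 120 bases. Dnaja1 had GAAAATTC at −124 to −117. Dnajb1 and Hspa4l had no match to these letters in the 300-base window. A match is a run of letters and not a measured binding site. Hsp90aa1, Hsp90ab1 and Hspa8 were not in the promoter table.

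Members of the set were lower in each of the 14 gates, as the map of log2 ratios by gate shows. Hsp90aa1 and Hspa8 had at least 50 UMIs and were lower in each of the 14 gates, and Hsph1 and Hspa4l in each of the 11 gates where they reached 50 UMIs. Dnaja1 was lower in 13 of 14 gates (not the S100a8 gate), Chordc1 in 10 of 12 (not the Hlf and Elane gates) and Hsp90ab1 in 8 of 14. In the small T/NK gate Dnaja1 rested on 42 UMIs in hypoxia and 40 UMIs in control. Of the 4 members with 50 UMIs there, 3 had a ratio interval below 1. Dnajb1 was lower in none of its 11 gates, with log2 ratios of −0.56 in the Pf4 gate to 0.01 in the Hlf gate. No member with 50 UMIs was 1.5-fold higher in any gate, where of all genes tested 3.57% were in the Hlf gate, 3.25% in Dntt, 1.37% in Elane, 4.84% in Irf8, 12.8% in S100a8, 3.39% in basophil, 15.6% in Epx, 3.14% in Pf4, 4.66% in Gata2 Slc18a2, 6.59% in early erythroid, 2.2% in CFU-E-stage, 2.63% in globin onset, 5.5% in globin-high and 11% in T/NK cells. These gates come from the same 2 libraries and so do not repeat the comparison.

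**Figure D2:**
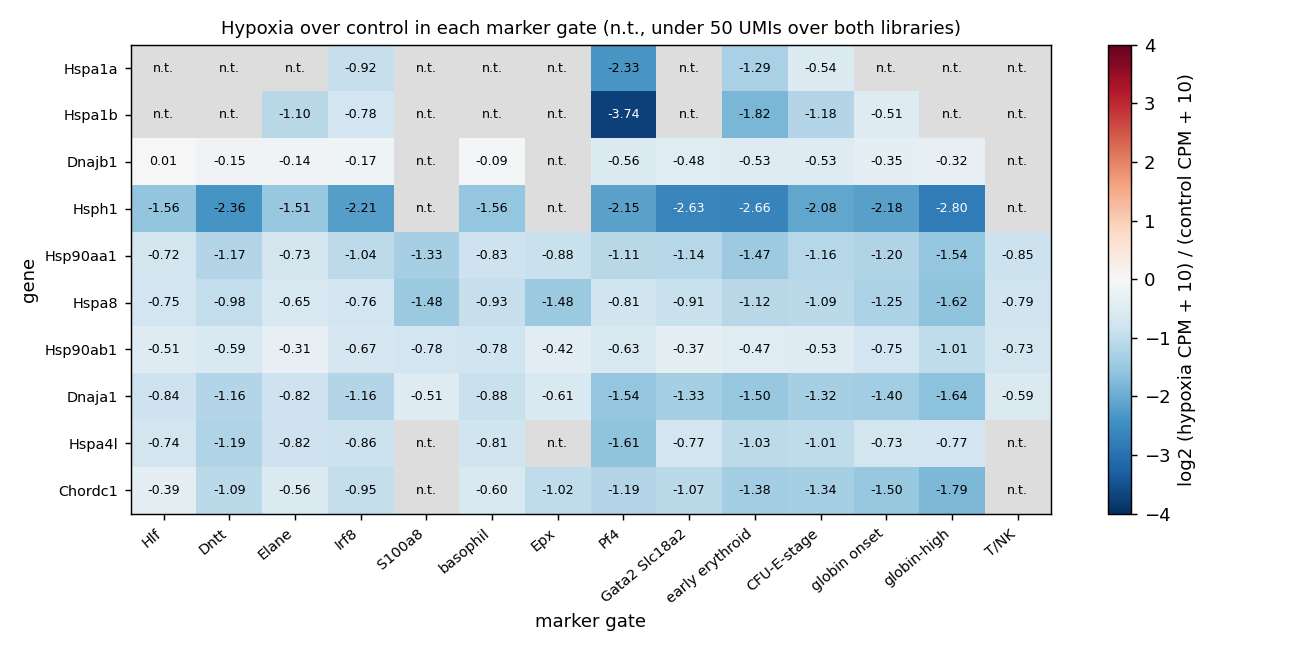
Log2 ratio of hypoxia over control, with 10 CPM added on both sides, for each gene (rows) and marker gate (columns); n.t. marks a gene with under 50 UMIs over both libraries. The row of Dnajb1 is the palest, between −0.56 and 0.01, and the deepest value is −3.74 for Hspa1b in the Pf4 gate.

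In the gates of early and myeloid progenitors, the Hlf gate had 5 of the 10 genes lower (3.54% of all genes tested there were) and the Dntt gate had 7 (2.67%). The Elane gate had 6 lower (1.1%), the Irf8 gate 9 (2.28%), the S100a8 gate 3 (6.81%) and the basophil gate 7 (3.2%). The Epx gate had 4 lower (13.3%), the Pf4 gate 9 (3.47%), the Gata2 Slc18a2 gate 6 (5.1%) and the T/NK gate 4 (12.7%). The erythroid gates had 8 lower in the early gate (3.79%), 7 at the CFU-E stage (1.26%), 7 at globin onset (1.75%) and 7 in the globin-high gate (3.18%). Members without 50 UMIs count here as not lower: 6 of them in the S100a8 and T/NK gates, 5 in the Epx gate and 0 to 2 elsewhere. Some genes counted as lower had 50 UMIs in control cells but not in hypoxia cells, so their passing the limit rested on the library where they are high. These were Hspa1a and Hspa1b in the Irf8, Pf4 and early erythroid gates, Hspa1b in the Elane gate, Hsph1 in the Gata2 Slc18a2 gate and Hspa8 in the S100a8 gate.

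Hlf-gate cells showed the smallest gap for Hsp90aa1 of the 14 gates on the log2 scale (−0.72). Hsp90aa1 had 1162 CPM in hypoxia and 1926 CPM in control Hlf-gate cells, a ratio of 0.603 (0.569 to 0.639), where the early erythroid gate had 0.361 (0.350 to 0.372). Dnajb1 stood at 116.1 CPM in hypoxia and 115.7 CPM in control Hlf-gate cells, a ratio of 1.004 (0.816 to 1.23), so no difference was detectable there. Chordc1 had 157 CPM in hypoxia and 209.7 CPM in control cells of that gate, a ratio of 0.749 (0.634 to 0.884). Median depths of the gate were close, at 8809.5 UMIs in hypoxia and 9605 UMIs in control cells.

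In the Irf8 gate, the only one in which all 10 members reached 50 UMIs outside the erythroid and Pf4 gates, the hypoxia library had its highest Hspa1a and Hspa1b levels among the 12 gates of at least 50 cells. Hspa1a had 3.12 CPM in hypoxia and 14.9 CPM in control cells, and Hspa1b 4.67 CPM in hypoxia and 15.1 CPM in control cells. The ratios were 0.210 (0.123 to 0.347) and 0.309 (0.196 to 0.481). Hsph1 had 57.4 CPM in hypoxia and 302 CPM in control cells of this gate. Basophil-gate cells had lower levels of HSP90 than Irf8-gate cells in both libraries, with Hsp90aa1 at 566 CPM in hypoxia and 1018 CPM in control and Hsp90ab1 at 1156 CPM in hypoxia and 1997 CPM in control.

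In control cells the inducible Hsph1, the summed pair of Hspa1a and Hspa1b, and Hsp90aa1 varied most over the marrow, and the inducible Dnajb1 varied least. Among the 12 gates with at least 50 cells, the summed pair varied 53.98-fold in control, with 6 UMIs in its lowest gate. Over the 12 gates with at least 50 cells in each library, Dnaja1 varied least in hypoxia of the members other than Hspa1a and Hspa1b, 3.18-fold between its highest (Dntt, 353 CPM) and lowest gate (S100a8, 111 CPM), against 5.71-fold in control (early erythroid, 926 CPM, and S100a8, 162 CPM). Dnajb1, though inducible, varied 3.75-fold in hypoxia and 3.52-fold in control, the least of these members there. Hspa8 varied 8.77-fold in hypoxia, with 973 CPM at the CFU-E stage and 111 CPM in the S100a8 gate, and 6.35-fold in control, with 2077 CPM at the CFU-E stage and 327 CPM in the S100a8 gate. Hsp90ab1 varied 9.002-fold in hypoxia and 7.20-fold in control, with its highest level in the early erythroid gate of both libraries. Hsp90aa1 varied 15.4-fold in hypoxia and 13.2-fold in control, with the CFU-E stage on top in both. Hsph1 varied 20.96-fold in hypoxia and 65.2-fold in control, though its S100a8 values rest on 4 UMIs (11.1 CPM) in hypoxia and 5 UMIs (16.2 CPM) in control. The S100a8 gate of maturing neutrophils was lowest for Hsp90aa1, Hspa8, Hsp90ab1, Dnaja1, Hspa4l, Chordc1 and Hsph1 in both libraries, and its median depth was also the lowest of these gates, 2777 UMIs in hypoxia and 4000 UMIs in control cells.

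The order of Hspa8 levels in hypoxia cells ran from the CFU-E stage (973 CPM) over the early erythroid gate (899 CPM), globin onset (839 CPM), Irf8 (824 CPM), Elane (757 CPM), Pf4 (748 CPM), Dntt (696 CPM), Gata2 Slc18a2 (694 CPM) and Hlf (679 CPM) to globin-high (541 CPM), basophil (480 CPM) and S100a8 cells (111 CPM). In control cells the 4 erythroid gates held the 4 highest places, from 2077 to 1688 CPM, above Irf8 (1399 CPM), Dntt (1388 CPM), Pf4 (1316 CPM), Gata2 Slc18a2 (1308 CPM), Elane (1192 CPM), Hlf (1149 CPM), basophil (922 CPM) and S100a8 cells (327 CPM). The globin-high gate thus stood in the fourth place in control and the tenth in hypoxia. Intervals of neighbours overlapped from globin onset to Irf8 and from Elane to Hlf in hypoxia, and from globin onset to early erythroid, from Irf8 to Gata2 Slc18a2 and from Elane to Hlf in control. Within these runs the order is not resolved.

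The genes closest to Hspa8 in their profile over the 12 gates, by the lower of the Pearson r of the 2 libraries on log2(CPM + 10), were Sf3a3 (0.978 in hypoxia and 0.980 in control), Stip1 (0.977 in hypoxia and 0.986 in control), Gspt1 (0.979 in hypoxia and 0.977 in control), Pa2g4 (0.974 in hypoxia and 0.975 in control) and Cct2 (0.973 in hypoxia and 0.972 in control), out of 6117 genes that are no members. Stip1 encodes the adaptor that links HSP70 to HSP90, and Cct2 a subunit of the chaperonin that folds actin and tubulin. For the summed Hspa1a and Hspa1b profile, Lamp1 (0.686 in hypoxia and 0.631 in control), Lactb (0.476 in hypoxia and 0.541 in control), Trappc1 (0.617 in hypoxia and 0.473 in control), Cnih4 (0.455 in hypoxia and 0.462 in control) and Ykt6 (0.448 in hypoxia and 0.713 in control) came first, and none reached the r of the Hspa8 list. The points are 12 gates of the same libraries, and the hypoxia profile of Hspa1a and Hspa1b spanned only 0 to 7.79 CPM.

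Along the erythroid gates, the HSP90 genes and Hspa8 were lowest in the globin-high gate in both libraries, and Dnajb1 was highest there. Hsp90ab1 went down through 3148, 2731, 1890 and 1044 CPM in hypoxia cells and 4361, 3935, 3193 and 2115 CPM in control cells over the early, CFU-E, globin onset and globin-high gates. Hsp90aa1 had its peak at the CFU-E stage in hypoxia, with 1865, 2350, 1813 and 1085 CPM, and was flat before it fell in control, with 5165, 5246, 4178 and 3165 CPM. Hspa8 had 899, 973, 839 and 541 CPM in hypoxia and 1961, 2077, 2013 and 1688 CPM in control cells. Dnajb1 had 100.2, 121, 195 and 208 CPM in hypoxia and 149, 179, 252 and 262 CPM in control cells, highest in the globin-high gate of both libraries with an interval that overlapped globin onset.

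The fall was steeper in hypoxia cells, and several gaps were widest at the last stage. Hspa8 at the CFU-E stage was 1.80 times its globin-high level in hypoxia cells and 1.23 times in control cells. Hsp90ab1 had hypoxia over control ratios of 0.722 (0.704 to 0.741), 0.694 (0.690 to 0.698), 0.592 (0.583 to 0.601) and 0.494 (0.476 to 0.512) over the 4 gates. Chordc1, the HSP90 co-chaperone, had ratios of 0.369 (0.328 to 0.413), 0.378 (0.368 to 0.388), 0.334 (0.316 to 0.354) and 0.266 (0.239 to 0.297). Hspa4l, of the HSP110 group, ran the other way, with 0.470 (0.416 to 0.530), 0.478 (0.464 to 0.491), 0.588 (0.555 to 0.623) and 0.568 (0.509 to 0.634). Dnajb1 also had a ratio nearer to 1 at the end, with 0.674 (0.583 to 0.777) in the early gate and 0.794 (0.720 to 0.878) in the globin-high gate. These are differences between gates of 1 library each, with counting intervals and no test.

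Hsph1 had 159, 233, 183 and 90.6 CPM over the 4 erythroid gates in hypoxia, against 1057, 1013, 864 and 689 CPM in control cells. Its ratio was 0.150 (0.136 to 0.166) in the early gate, 0.230 (0.225 to 0.234) at the CFU-E stage, 0.211 (0.203 to 0.220) at globin onset and 0.131 (0.120 to 0.144) in the globin-high gate. Dnaja1 had 320.4, 335, 300.2 and 239 CPM in hypoxia, against 926, 853, 807 and 764 CPM in control cells. Globin-high cells of the 2 libraries differed in globin load, at 23403 CPM in hypoxia and 29707 CPM in control cells, and in depth, at medians of 17867 UMIs in hypoxia and 23624 UMIs in control. The part of these differences in the wider gaps was not tested.

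**Figure D3:**
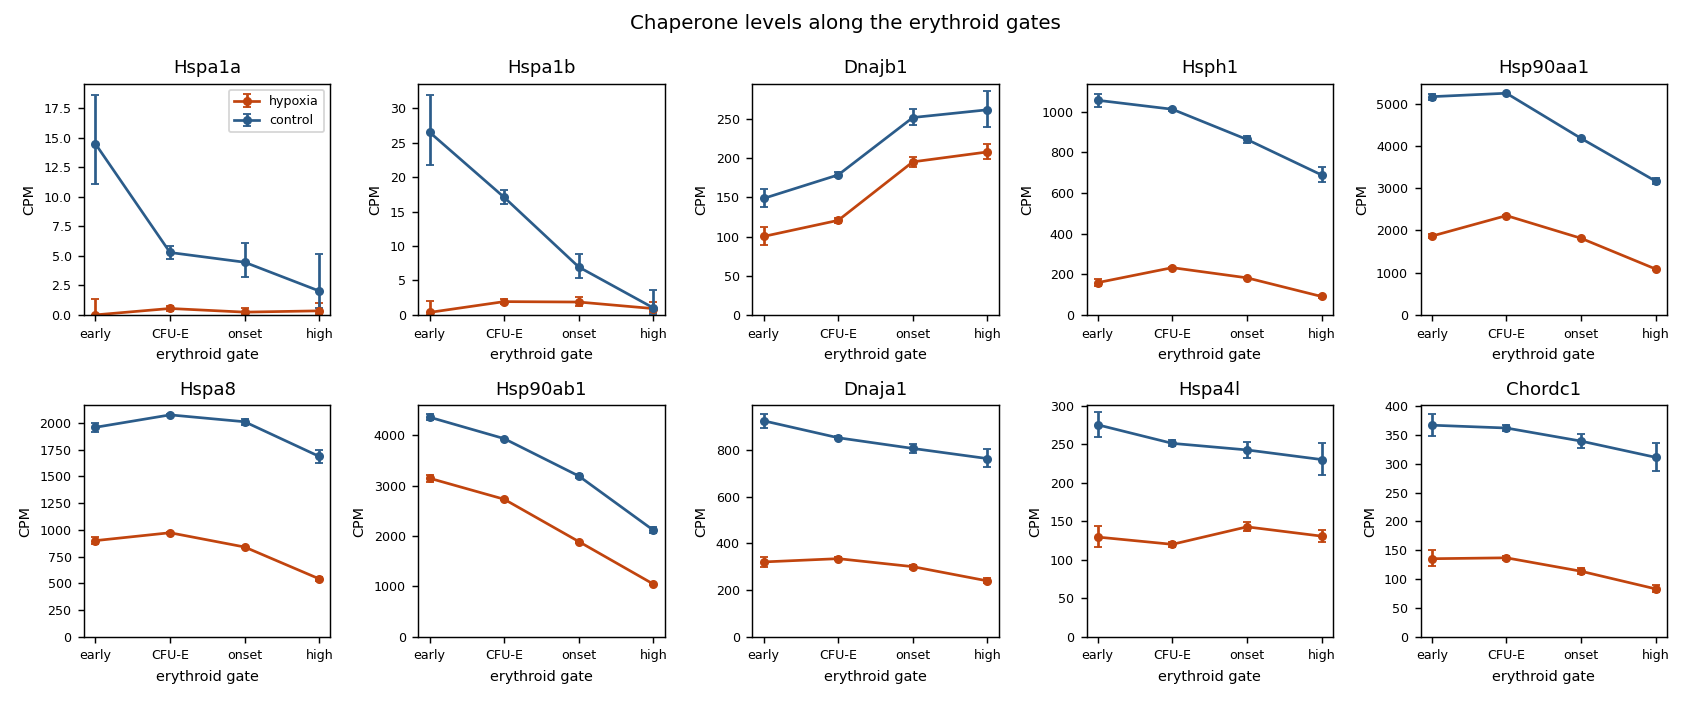
Scaled counts (CPM, linear axes from 0, each with its own scale) of each gene in the early, CFU-E-stage, globin onset and globin-high gates, with exact Poisson 95% intervals, hypoxia and control drawn as separate lines. Hsp90ab1, Hsp90aa1 and Hspa8 decline to the globin-high gate in both libraries, Dnajb1 climbs in both, and Hspa1a and Hspa1b lie near 0 throughout hypoxia.

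Ratios between partner genes put the inducible and constitutive members side by side within a library. UMIs count molecules and not length, but capture can differ between genes, so a ratio is read between libraries and gates only. Hsp90aa1 over Hsp90ab1 was 0.746 (0.742 to 0.750) in all hypoxia cells and 1.18 (1.18 to 1.19) in all control cells. Over the 4 erythroid gates it climbed through 0.592, 0.861, 0.959 and 1.04 in hypoxia, and stood at 1.18, 1.33, 1.31 and 1.496 in control. Outside the erythroid gates it stayed below 1 in both libraries, with the highest values in the Pf4 gate, 0.621 (0.582 to 0.664) in hypoxia and 0.866 (0.837 to 0.896) in control. In the basophil gate the libraries were close, at 0.490 (0.469 to 0.512) in hypoxia and 0.510 (0.484 to 0.537) in control, with overlapping intervals.

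Dnajb1 over Dnaja1, the J-domain pair, ran the opposite way, since the constitutive partner had the larger gap. It was 0.402 (0.394 to 0.409) in hypoxia and 0.208 (0.205 to 0.211) in control over all cells, and in the globin-high gate reached 0.871 (0.817 to 0.928) in hypoxia and 0.343 (0.310 to 0.379) in control. Hsph1 over Hspa4, a further HSP110 gene that was no member, was 0.526 (0.517 to 0.534) in hypoxia and 2.04 (2.01 to 2.06) in control over all cells. Hspa4 itself had 311 CPM in hypoxia and 409 CPM in control cells, a ratio of 0.760 (0.750 to 0.770).

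The strictly inducible pair, Hspa1a and Hspa1b, stayed under 10 CPM in hypoxia cells of every gate and reached 164 CPM in control cells. Summed over both genes, hypoxia cells had 343 UMIs (2.58 CPM) and control cells 3126 UMIs (26.1 CPM). The Pf4 gate stood out in control, with 436 UMIs (164 CPM, 149 to 180), while the hypoxia Pf4 gate had 0 UMIs, which allows up to 2.75 CPM by the same exact interval. The order in control cells went on with the early erythroid gate (41.1 CPM), Irf8 (interval 24.5 to 36.4 CPM) and Gata2 Slc18a2 (28.3 CPM). The CFU-E stage (22.4 CPM) and Elane (20.1 CPM) came next. Of the 12 gates of at least 50 cells, the globin-high gate was last with 3.03 CPM from 6 UMIs, with an interval that overlapped the S100a8 gate. The small Epx and T/NK gates had 0 UMIs of the pair in control. Intervals of neighbours overlapped from the early erythroid gate to Elane. They were apart between the Pf4 and the early erythroid gate. They were also apart between Elane (17.0 to 23.5 CPM) and the next gate, globin onset (9.34 to 13.8 CPM). In hypoxia cells the Irf8 gate was first with 7.79 CPM, and the early erythroid gate had 1 UMI and the Gata2 Slc18a2 gate 0.

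To set shares of cells side by side, each cell was thinned to 5000 UMIs and shallower cells were left out, 537 in hypoxia and 301 in control. A UMI of Hspa1a or Hspa1b was then seen in 63 of 5739 hypoxia cells (1.10%, exact Clopper-Pearson interval 0.845 to 1.40%) and 312 of 3613 control cells (8.64%, 7.74 to 9.60%), against 3.27% in hypoxia and 27.0% in control without thinning. In the Pf4 gate it was 0 of 49 hypoxia cells, with an upper limit of 7.25%, and 26 of 91 control cells (28.6%, 19.6 to 39.0%), or 0% in hypoxia and 40.2% in control without thinning. The control UMIs were spread over 43 cells of that gate, and the cell with the most held 54 of them, 12.4%. At the CFU-E stage the thinned shares were 1.14% (0.699 to 1.76%) in hypoxia and 8.40% (7.06 to 9.89%) in control. In the globin-high gate, where the control level was lowest of the 12 gates of at least 50 cells, they were 0.211% in hypoxia and 1.18% in control. That gate had 477 hypoxia and 88 control cells before thinning, so these 2 shares rest on very few positive cells. No cell type taken to lack these genes was gated, so the share that free RNA gives is not known. For Dnajb1 the shares over all cells were 43.0% (41.7 to 44.3%) in hypoxia and 50.7% (49.1 to 52.4%) in control, and for Hsph1 45.2% (43.9 to 46.5%) in hypoxia and 82.5% (81.2 to 83.7%) in control.

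Within the CFU-E stage, the largest gate with 1750 hypoxia and 1548 control cells, the gaps of Hsph1, Hsp90aa1 and Hspa8 ran through most cells. The median cell had 2.13 Hsph1 UMIs per 10000 in hypoxia (10th to 90th percentile 0.925 to 3.79) and 9.85 in control (4.12 to 15.7), and 93.0% of hypoxia cells lay below the control 10th percentile. For Hsp90aa1 the medians were 23.0 (16.5 to 30.4) in hypoxia and 51.6 (34.8 to 68.3) in control, and 97.8% of hypoxia cells lay below that limit. For Hspa8 they were 9.42 (5.97 to 13.8) in hypoxia and 20.6 (14.5 to 26.6) in control, with 92.6% below. Dnajb1 overlapped, with medians of 1.12 (0.328 to 2.15) in hypoxia and 1.66 (0.753 to 2.93) in control, and 24.2% of hypoxia cells were above the control median. The share of hypoxia cells below the control 10th percentile was 87.0% for Dnaja1, 74.5% for Hsp90ab1, 68.7% for Chordc1 and 38.4% for Hspa4l. Hspa1a and Hspa1b had medians of 0 in both libraries, so this cannot be read for them.

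**Figure D4:**
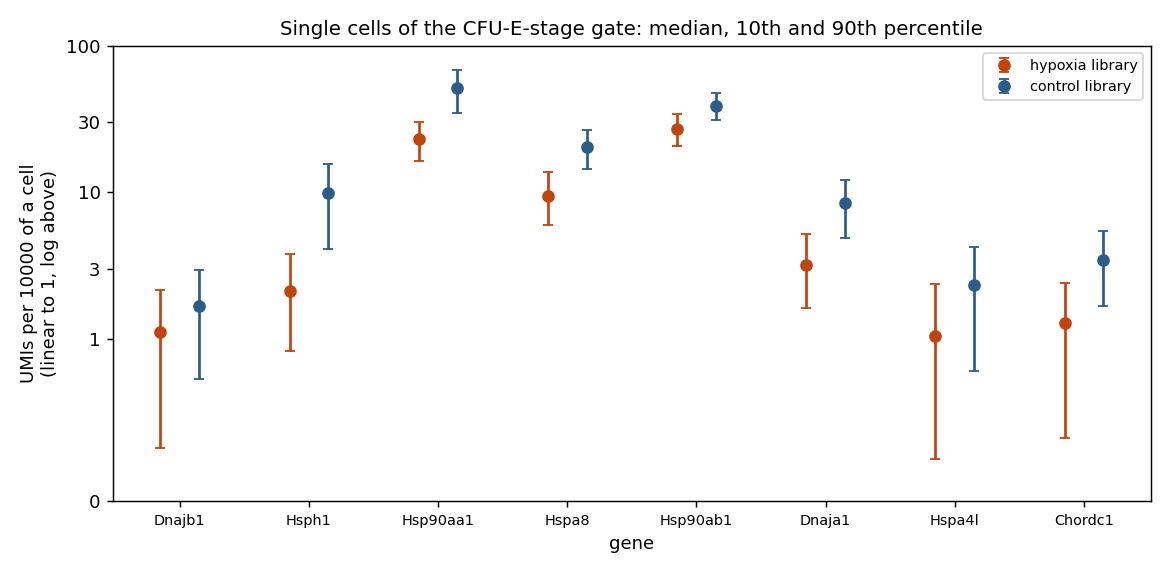
UMIs per 10000 of single CFU-E-stage cells (1750 hypoxia and 1548 control), as the median with the 10th and 90th percentiles, on an axis that is linear to 1 and logarithmic above. The ranges of Hsph1, Hsp90aa1 and Hspa8 are apart between the libraries, while those of Dnajb1 overlap widely.

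CFU-E-stage cells were also shallower in hypoxia, with median depths of 29957.5 UMIs in hypoxia and 43001 UMIs in control. Among cells of 20000 to 40000 UMIs in both libraries (1366 hypoxia and 532 control cells), the ratios were 0.259 for Hsph1, 0.406 for Dnaja1, 0.403 for Chordc1, 0.476 for Hsp90aa1, 0.502 for Hspa8, 0.711 for Hsp90ab1 and 0.697 for Dnajb1. Over all cells of the gate they were 0.230, 0.392, 0.378, 0.448, 0.468, 0.694 and 0.675, so the gaps were nearly as wide within that range of depth. The range did not make depths equal, since its cells had medians of 29789.5 UMIs in hypoxia and 34996.5 UMIs in control. Markers of other cells and of later erythroid cells were summed in the same gate. The 5 macrophage markers summed to 0.337 CPM in hypoxia and 0.615 CPM in control cells, the 6 neutrophil markers to 11.5 CPM in hypoxia and 5.12 CPM in control, and the 5 basophil markers to 50.6 CPM in hypoxia and 9.79 CPM in control. The 5 granulocyte progenitor markers summed to 43.03 CPM in hypoxia and 18.9 CPM in control. The 6 erythroblast markers summed to 177 CPM in hypoxia and 124 CPM in control. These are globin genes, Alas2 and Slc4a1, which belong to the lineage of this gate, and its limit on globin caps the globin part. All of these lists but the macrophage one were higher in hypoxia. Their part in the gaps was not tested.

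Among control cells of the CFU-E stage, 7 of the 10 members varied together from cell to cell, and Hspa1a, Hspa1b and Dnajb1 did so less. The 7 are grouped here by these same r values, so the split is a description and no result. After thinning to 15000 UMIs, Pearson r between Hsp90aa1 and Hsph1 was 0.154 in 1677 hypoxia cells and 0.615 in 1544 control cells. Over the 21 pairs of the 7 members other than Hspa1a, Hspa1b and Dnajb1, r ran from −0.02 to 0.258 in hypoxia and from 0.225 to 0.615 in control. With these 7 genes in control cells, Dnajb1 had r of 0.0673 to 0.151, Hspa1a of 0.0395 to 0.139 and Hspa1b of 0.124 to 0.222, the last pair at under 1 UMI per thinned cell on average. Hspd1, a mitochondrial chaperonin outside the set, had r with Hsp90aa1 of 0.280 in hypoxia, above each of the 21 pairs there, and of 0.318 in control. With the 7 genes in control cells, Hspd1 had r of 0.146 to 0.318 and its partner Hspe1 of 0.105 to 0.276. Both ranges reach into that of the 21 pairs, so such r values were not particular to the members. Mean Hsph1 counts per thinned cell were 3.40 in hypoxia and 14.8 in control, and their part in the difference was not tested. Cells of 1 library share its preparation and depth, so r is a description.

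Genes of the same system outside the set were described from lists, with the values over all cells. Of all genes tested over all cells, 1.1% were lower and 2.59% higher. Of 25 other cytosolic HSP70, HSP90 and HSP40 genes, 22 had at least 50 UMIs, and 1 of them was lower, Dnajc21, a ribosome biogenesis J-domain protein, with 54.9 CPM in hypoxia and 90.7 CPM in control cells. None was higher, and the median log2 ratio was 0.01. Dnajc2 (129 CPM in hypoxia and 199 CPM in control) and Hspa4 came next in order, and Dnajc13 (57.1 CPM in hypoxia and 46.1 CPM in control), Dnajc5 (150.1 CPM in hypoxia and 127 CPM in control) and Dnajb6 (175 CPM in hypoxia and 151 CPM in control) were at the high end.

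The co-chaperones of HSP90 and HSP70 had 6 of 30 genes lower and 0 higher, against 1.1% and 2.59% of all genes tested. Their median log2 ratio was −0.18. Cacybp, the calcyclin-binding protein, had 309.6 CPM in hypoxia and 605 CPM in control cells, a ratio of 0.512 (0.505 to 0.518). Fkbp4, an immunophilin of the steroid receptor complex, had 289 CPM in hypoxia and 517 CPM in control, a ratio of 0.559 (0.552 to 0.566). Ptges3, the p23 protein that stabilizes closed HSP90, had 404 CPM in hypoxia and 715 CPM in control, a ratio of 0.565 (0.559 to 0.571). The other lower genes were Stip1, Ahsa1, which speeds the ATPase of HSP90, and Nudc. Cdc37, which brings kinases to HSP90, stood level at 273.6 CPM in hypoxia and 273.7 CPM in control, and Cdc37l1 and Bag6 had ratios of 1.02 and 1.09.

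The list of the HSF1 family and further heat shock response genes had 16 tested genes. By this rule 0 of them were lower or higher, against 1.1% lower and 2.59% higher of all genes tested. Their median log2 ratio was −0.05. Only 5 genes of the list had 50 CPM in a library. For the others the added 10 CPM narrows the log2 ratio, so the count says little about them. Hsf1 itself, the transcription factor, had 22.4 CPM in hypoxia and 31.9 CPM in control cells, a ratio of 0.703 (0.670 to 0.738). Hikeshi, the importer of HSP70 into the nucleus, had 54.9 CPM in hypoxia and 78.4 CPM in control, Mrpl18 221 CPM in hypoxia and 289 CPM in control, and Hsbp1 70.8 CPM in hypoxia and 85.0 CPM in control. Ubb, a polyubiquitin gene, had 245 CPM in hypoxia and 217 CPM in control.

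Chaperones of the endoplasmic reticulum had 3 of 17 genes lower and 0 higher, against 1.1% and 2.59% of all genes tested. Their median log2 ratio was −0.35. Hspa5, which encodes the BiP chaperone, had 593 CPM in hypoxia and 942 CPM in control cells, Hsp90b1 (GRP94) 566 CPM in hypoxia and 882 CPM in control, and Sdf2l1 62.0 CPM in hypoxia and 104 CPM in control. Calr (1212 CPM in hypoxia and 1147 CPM in control) and Pdia6 (189.7 CPM in hypoxia and 183 CPM in control) stood close to level, and Dnajc10 had 147 CPM in hypoxia and 95.03 CPM in control, just under the limit for higher. Mitochondrial chaperones had 1 of 13 lower and 0 higher, against the same 1.1% and 2.59%, with a median log2 ratio of −0.13. The lower gene was Hspd1, the HSP60 chaperonin, with 828 CPM in hypoxia and 1260 CPM in control, while its partner Hspe1 had 831 CPM in hypoxia and 1174 CPM in control, Grpel1 79.7 CPM in hypoxia and 119 CPM in control, Trap1 87.4 CPM in hypoxia and 90.7 CPM in control, Dnajc15 65.6 CPM in hypoxia and 64.0 CPM in control and Dnajc19 113 CPM in hypoxia and 92.9 CPM in control.

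Genes that respond to cell dissociation and handling were looked at beside these, since several of the 10 members respond to handling as well. Of 28 genes known from early responses and dissociation stress, 3 were lower over all cells (Ier2, Nfkbia and Junb). Klf4, named after its value was seen, was the 1 higher gene, and the median log2 ratio was −0.11. Of all genes tested, 1.1% were lower and 2.59% higher. Ier2 had 79.6 CPM in hypoxia and 145 CPM in control cells, Nfkbia 71.9 CPM in hypoxia and 131 CPM in control, and Junb 42.9 CPM in hypoxia and 73.8 CPM in control, whereas Dusp1 (88.4 CPM in hypoxia and 106 CPM in control), Zfp36 (104 CPM in hypoxia and 119.9 CPM in control) and Klf6 (92.3 CPM in hypoxia and 88.9 CPM in control) were closer. The counts differed between gates. A gene was tested by its UMIs over both libraries together, so some genes reached the minimum only through the library where they are high. In the early erythroid gate Fos, counted as lower, had 29 UMIs in hypoxia and 261 UMIs in control cells. In the globin-high gate Jun went the other way, with 108 UMIs in hypoxia and 29 UMIs in control cells. How many of the lower genes of each gate rested on control in this way was not counted. In the Gata2 Slc18a2 gate 18 of 20 tested genes were lower (median log2 ratio −1.53), in the Irf8 gate 18 of 25 (−1.03), in the Dntt gate 15 of 22 (−0.95), in the Hlf gate 14 of 22 (−0.74), in the Pf4 gate 11 of 18 (−1.24) and in the early erythroid gate 9 of 16 (−1.11). At the CFU-E stage 6 of 21 were lower (−0.17), namely Ier2, Nfkbia, Dusp1, Jun, Junb and Jund, with Ier2 at 31.03 CPM in hypoxia and 85.96 CPM in control. At globin onset 2 of 16 were lower (−0.10) and in the globin-high gate 0 of 13 (0.09). Of the other gates, Elane had 10 of 23 lower (−0.54), basophil 7 of 22 (−0.46) and T/NK 6 of 12 (−0.57). The Epx gate had 4 of 16 lower (−0.27) and the S100a8 gate 2 of 16 (−0.31). Of all genes tested, 5.1% were lower in the Gata2 Slc18a2 gate, 2.28% in Irf8, 2.67% in Dntt, 3.54% in Hlf and 3.47% in Pf4. The share was 1.1% in Elane, 3.2% in basophil, 12.7% in T/NK, 13.3% in Epx and 6.81% in S100a8 cells. In the erythroid gates 3.79% were lower in the early gate, 1.26% at the CFU-E stage, 1.75% at globin onset and 3.18% in the globin-high gate. In the Pf4 gate Fos had 7 UMIs (5.22 CPM) in hypoxia and 599 UMIs (225 CPM) in control cells, in the same direction as Hspa1a and Hspa1b. The part of handling in the gaps of the chaperone genes was not tested.

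The 3 cold-inducible RNA-binding genes went the other way. Srsf5 had 726 CPM in hypoxia and 345 CPM in control cells, a ratio of 2.11 (2.08 to 2.13), Rbm3 691 CPM in hypoxia and 514 CPM in control, a ratio of 1.34 (1.33 to 1.36), and Cirbp 34.2 CPM in hypoxia and 20.7 CPM in control, a ratio of 1.65 (1.57 to 1.73). With 10 CPM added on both sides, Srsf5 passed the 1.5-fold limit for higher, and Cirbp, at a log2 ratio of 0.52, and Rbm3 did not. Of all genes tested over all cells, 2.59% passed it. The direction held for all 3 over all cells in each of the other settings tried, with Rbm3 between 0.31 and 0.49 on the log2 scale, Srsf5 between 0.83 and 1.07 and Cirbp between 0.25 and 0.70. Srsf5 was 1.5-fold higher in 10 of 14 gates, Cirbp in 4 of 11, and Rbm3 in 5 of 14 with a lower value in the S100a8 gate (log2 ratio −0.25). The share of all genes tested that were higher ran from 1.37% in the Elane gate to 15.6% in the Epx gate.

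**Figure D5:**
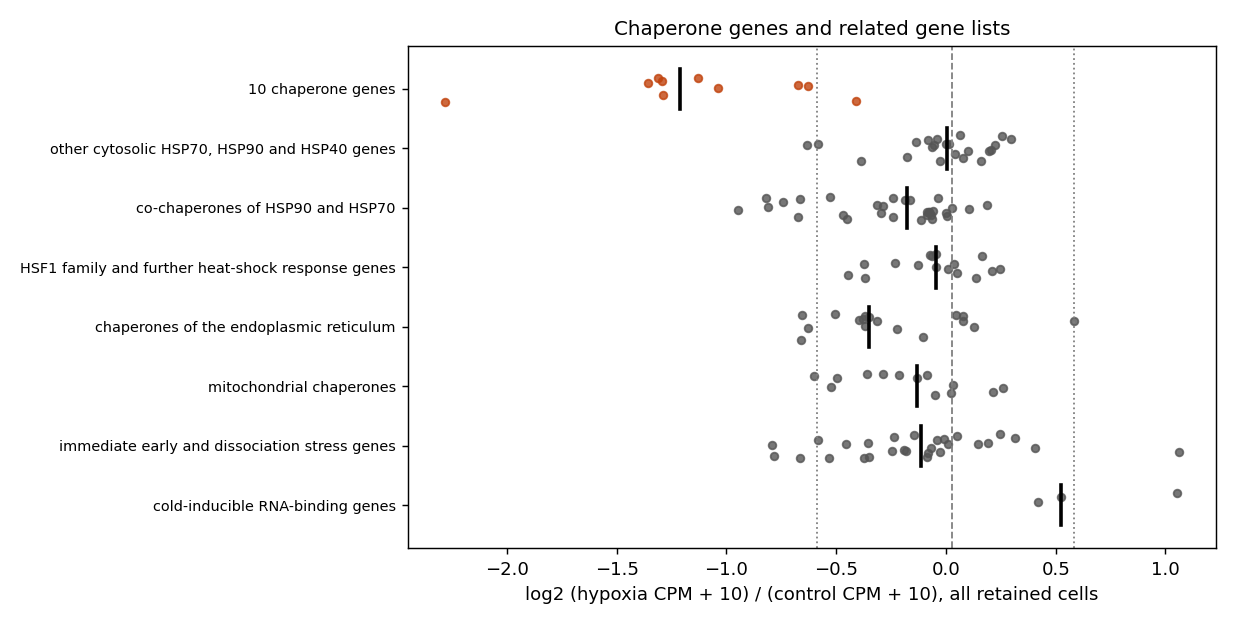
Log2 ratio of hypoxia over control over all retained cells, with 10 CPM added on both sides, for the 10 chaperone genes and for each tested gene of the 7 lists; black bars are medians, the dashed line is the median of all genes (0.03), and dotted lines mark 1.5-fold. Of the 10 chaperone genes, 7 lie left of every list gene, and their median is −1.21, and the cold-inducible genes are the one list wholly to the right of 0.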

How the data were processed

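Lineage-depleted bone marrow cells of 1 hypoxia and 1 control library were measured by BD Rhapsody whole-transcriptome single-cell RNA sequencing. Per the file headers, the deposited values are raw UMI counts per cell and gene from the BD WTA Rhapsody Analysis Pipeline 1.7.1 with GRCm38, PhiX and GENCODE vM19; the submitters' processing notes also name Bowtie2. The sources used here do not say how cells were called. Of 6406 hypoxia and 3956 control cells deposited, Scrublet (scanpy 1.11.5) removed 116 (1.81%) and 36 (0.910%) as doublets, and cells under 500 UMIs, under 200 genes or with 20% or more mitochondrial UMIs were left out. Deposited UMIs totalled 137504361 in hypoxia and 121415081 in control.

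Gates used UMIs per 10000 of the markers (limits 1, 2, 5 and 10; globin 10 and 100), and cells in several gates (365 hypoxia and 109 control) or none (699 and 494) entered no gate. Counts were summed per gate and scaled to CPM, with exact Poisson intervals and exact conditional intervals for ratios, both at 95%. Log2 ratios had 10 CPM added, and a gene was tested against the 1.5-fold limit with at least 50 UMIs over both libraries. Cells were thinned to 5000 UMIs for shares and 15000 for correlations. Interval coverage was checked on simulated data. No significance test was made, since each group is 1 library. The 10 genes, the lists and the gates were chosen with earlier results of these data known.

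Named from each list were the 3 lowest and 3 highest log2 ratios over all cells among genes with 50 CPM in a library, and for likeness the 5 genes with the highest r. Alternatives changed the added CPM, the scaling (TMM factors, edgeR 4.0.16), filters, doublets, depth, gate limits and the cell with most UMIs. Python 3.11.15, numpy 2.4.6, scipy 1.17.1, pandas 2.3.3, biopython 1.88, matplotlib 3.10.9 and R 4.3.3 were used. A gene that the naming rule would give among the related lists is not reported here.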

Additional observations from a re-analysis of the deposited data

How the results depend on the processing

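Among 121 log2 ratios of members with at least 50 UMIs, no member changed direction past the 1.5-fold limit under any alternative run. Of the 98 that were 1.5-fold lower, 98 stayed so with 1 CPM added and 84 with 50 CPM added. TMM factors kept 96, and 95 stayed lower with doublets kept, with no cell filter, under 10% mitochondrial UMIs, with cells thinned to 5000 UMIs or without the cell with most UMIs. The mean of CPM per cell kept 94. Marker limits doubled kept 88 of 89, halved 86 of 89, and both changes of the globin limits 29 of 29. The limit of 20000 to 40000 UMIs kept 7 of 7 and, like the extension of the globin limits to ratios, was chosen after seeing the data.

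The count of lower members moved over 1.5-fold in the S100a8 gate (5 with no minimum of UMIs, 3 as reported), the T/NK gate (7 with no minimum, 4 as reported) and the Epx gate (2 with doublets kept and 2 with no cell filter, 4 as reported). Other cytosolic chaperones (1 lower as reported) had 2 lower under 10% mitochondrial UMIs, with TMM factors and with 1 CPM added, and 0 with 50 CPM added. Mitochondrial chaperones (1 as reported) had 3 with TMM factors and 0 with 50 CPM added. Immediate early genes (3 as reported) had 5 with TMM factors, 6 with 1 CPM added, 1 with 50 CPM added, 6 with the mean of CPM per cell and 8 with cells thinned. Srsf5 in the T/NK gate reversed to −0.54 with cells thinned. The cause of these changes was not tested. The share of all genes that were lower was not counted under these alternatives, so the list counts cannot be set beside it. TMM factors moved the median of all genes by over 0.1 in the S100a8 gate, to −0.05 from 0.06. The Hspa8 level at the CFU-E stage over that in the globin-high gate was 2.25 and 1.58 in hypoxia, and 1.44 and 1.16 in control, with globin limits doubled and halved. No paired analysis was possible because each group is 1 library, and for the same reason no replicate could be left out.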

Other observations

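Several patterns outside the set of 10 genes ran through many gates, described here for genes chosen after their values were seen. Hspa5 and Hsp90b1, the main HSP70 and HSP90 chaperones of the endoplasmic reticulum, were each 1.5-fold lower in 10 of 14 gates, and Sdf2l1, a stress-induced partner of Hspa5, in 10 of 11. The largest gap of Hsp90b1, a log2 ratio of −1.58 in the small T/NK gate, rests on 42 UMIs in hypoxia and 80 UMIs in control, and the next, in the early erythroid gate, was −1.21. Among co-chaperones, Ptges3 was lower in 8 of 14 gates and Cacybp and Fkbp4 in 8 of 12. Hsf1 was lower in 0 of 11 gates, with log2 ratios of −0.40 to 0.04. Its hypoxia levels there were only 12.9 to 30.7 CPM, so the 10 CPM added narrows these ratios.

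The immediate early genes Jun and Ier2 were lower in 9 of 14 gates, Junb in 10 of 13 and Fos in 7 of 13. The Pf4 and early erythroid gates are among those of Fos, and there it reached the minimum of UMIs only through control cells. Fos in the Dntt gate had 196 CPM in hypoxia and 1052 CPM in control cells, and in the Hlf gate 474 CPM in hypoxia and 1294 CPM in control cells. At the CFU-E stage the log2 ratios were −1.23 for Ier2, −0.75 for Jun, −0.74 for Junb and −0.31 for Fos. In the globin-high gate they were −0.28 for Ier2, −0.14 for Jun and 0.09 for Junb, and Fos had too few UMIs there to be read, with 2.86 CPM in hypoxia and 2.02 CPM in control (ratio 1.42, 0.489 to 5.60). Whether these genes and the chaperone genes share a cause was not tested.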
